A study of Rattus norvegicus with 18 samples.

Results

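Transcripts of 10 genes of cytokine signaling through Janus kinases were followed in transplanted rat hearts and in T cells. The kinase genes were Jak1, Jak2 and Jak3, and the transcription factor genes were Stat3, Stat4, Stat5a and Stat5b. The feedback inhibitor genes were Socs2, Socs3 and Cish. Protein levels and phosphorylation, and so the activity of the pathway, were not measured. The genes were taken by symbol, from probe sets that the platform annotation gives to a single gene, and 13 probe sets matched. Jak1, Stat3 and Cish had 2 probe sets each, and the set with the higher mean over all 18 arrays was kept. The 10 genes stand among 14217 genes that the array measures with such a probe set.

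Hearts of Wistar Furth (WF, RT1.Au) rats were placed in the abdomen of ACI (RT1.Aa) rats, both adult, male and inbred, so every sample came from a recipient of a mismatched graft. The 3 treatments were cyclosporine plus the allochimeric peptide [a1h1/u]-RT1.Aa, cyclosporine alone, and no treatment. Cyclosporine was fed at 10 mg/kg/day on days 0 to 2, a dose the labels call sub-therapeutic, and the peptide was given at 1 mg/kg into the portal vein at transplantation. No sham injection is described for the other animals. T cells and heart allografts were each represented by 1 array for each treatment on days 1, 3 and 7, which makes 9 arrays per tissue and no second array of any combination. The labels give the strain Wistar Furth for the T cells as well as the hearts and do not describe how, or from which organ, the T cells were isolated. Nor do they say whether animals were pooled.

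A cytokine that binds its receptor activates the Janus kinases attached to that receptor, which phosphorylate signal transducers and activators of transcription, the STAT proteins. Phosphorylated STATs enter the nucleus and switch on target genes, among them the genes of the suppressor of cytokine signaling (SOCS) family, which includes Cish and whose proteins restrain the receptor. In lymphocytes JAK1 and JAK3 serve the receptors that share the common gamma chain, such as those of interleukin-2 and interleukin-7. STAT4 serves the interleukin-12 receptor and STAT5A and STAT5B the interleukin-2 receptor.

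The promoter of Cish is shown because this textbook target of STAT5 carried the STAT binding motif and moved with day in the hearts. The RefSeq tables (build GRCr8) held promoters for 7 of the 10 genes, all but Jak1, Jak3 and Socs2. The 250 bases before the start of Cish, on the plus strand at chr8:116850719-116850968, follow with the motif TTCNNNGAA in capitals.
Cish: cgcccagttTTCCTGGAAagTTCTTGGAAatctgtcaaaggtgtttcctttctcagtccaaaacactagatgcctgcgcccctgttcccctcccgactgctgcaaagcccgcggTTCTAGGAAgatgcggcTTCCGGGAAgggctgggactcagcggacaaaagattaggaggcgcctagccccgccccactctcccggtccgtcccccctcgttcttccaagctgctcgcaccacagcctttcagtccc

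The motif TTCNNNGAA reads the same on the opposite strand, so 1 search covered both strands. Counted from the start of the gene, the 4 matches ran from -241 to -233 (TTCCTGGAA), from -230 to -222 (TTCTTGGAA), from -136 to -128 (TTCTAGGAA) and from -119 to -111 (TTCCGGGAA), without overlap. Windows from 250 bases before to 50 after the start held at least 1 match in 8.87% of 33469 promoters and 4 or more in 2 of them. The windows of Jak2, Stat3, Stat4, Stat5a, Stat5b and Socs3 held none. The same ends with 1 more base between them, 4 in all, were in none of the 7 windows and were in 7.28% of all promoters. The annotated starts that the windows of Socs3, Stat5b and Stat3 belong to lie 1207, 226 and 154 bases inside the outermost start of each gene, which these windows therefore do not represent. Stat5b, Stat5a and Stat3 lie next to each other on chromosome 10.

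The values are signal intensities as deposited, and differences are given on the scale log2(signal + 16), on which the change of a dim gene is understated. A gene entered a test where 3 or more of the arrays fitted showed it above their own 40th percentile, and a call means a Benjamini-Hochberg adjusted p below 0.05 in limma over all probe sets tested. That percentile lay between 127 and 133 in T cells and between 135 and 145 in hearts. All 10 genes passed the filter in both tissues, and 9 of them exceeded the percentile on all 18 arrays. The exception was Stat4, which in hearts exceeded it only on the 3 day 7 arrays. Since no combination has a second array, the spread behind each p-value is the unevenness of the differences over days and treatments, which may be technical.

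The marker genes fitted the tissue labels in part. All 12 T cell markers measured exceeded the percentile on every T cell array, and the summed signal of 9 heart muscle markers was 289.1 to 416.1 on T cell arrays and 90540 to 129100 on heart arrays. All 5 B cell markers and all 9 macrophage markers were also above the percentile on every T cell array. The macrophage markers summed to 28900 to 50400 there, with the highest sum on the untreated day 1 array, and to 14900 to 58000 on heart arrays. The part of these cells in the T cell levels of the 10 genes was not tested. The T cell array of untreated rats on day 1 stood apart: its 7 neutrophil markers summed to 38600, against 1232 to 3487 on the other 8 T cell arrays, and its T cell markers summed to 58210, against 74360 to 83960. The 9 calls between T cells and hearts that follow were also made without it, and without it, as with it, 0 of the 10 genes were called between days or treatments within T cells.

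The first comparison asked where the 10 genes were expressed. In the fit over 18 arrays 6 genes were higher in T cells than in hearts, a direction in which 47.9% of all probe sets were called, and 3 were lower, against 35.5% of all probe sets. T cells had more Jak3, Stat4, Cish, Stat5b, Stat5a and Jak1 signal, and less Stat3, Socs2 and Jak2 signal. Levels of different genes come from different probes and are not compared with each other.

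Stat4, the transducer of interleukin-12, spanned 1758 to 2751 in the 9 T cell samples with a median of 2573, and 90.75 to 693.9 in the 9 hearts with a median of 118.1. Every T cell array exceeded every heart array. Only 3 of the 9 hearts exceeded the 40th percentile, so the difference is given as a bound over all days. With each dimmer heart value raised to that percentile, T cells were at least 10.8-fold higher in geometric mean. The bound itself was not tested, and the limma fit without this raising gave 3.56 (log2, adjusted p = 6.09e-09). The gap was narrower on day 7, when Stat4 spanned 2663 to 2751 in T cells and 552.3 to 693.9 in hearts. Jak3, the kinase bound to the common gamma chain, spanned 2436 to 2877 in T cells with a median of 2666, and 246.7 to 1103 in hearts with a median of 342.5. Its groups did not overlap either, and the difference over all days was 2.49 ± 0.22 (log2, SE, adjusted p = 3.26e-08, limma). Here too the gap was narrower on day 7, when Jak3 spanned 2542 to 2758 in T cells and 893.6 to 1103 in hearts. Cish, a STAT5-induced inhibitor of interleukin-2 receptor signaling, spanned 775.8 to 1424 in T cells with a median of 1142, and 290.5 to 591.9 in hearts with a median of 391.4. It also separated the tissues, at 1.44 ± 0.10 (adjusted p = 1.16e-09, limma).

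The differences were smaller for the remaining 3 genes with higher T cell signal. Stat5b spanned 582.6 to 729.6 in T cells (median 658.5) and 274.3 to 398.4 in hearts (median 299.8), and Stat5a spanned 1227 to 1456 in T cells (median 1381) and 615 to 915.6 in hearts (median 667.8). Jak1, which pairs with many receptor chains, spanned 8162 to 10300 in T cells (median 9066) and 4421 to 5974 in hearts (median 4834). None of the 3 genes overlapped between tissues, with differences of 1.03 ± 0.06, 0.93 ± 0.06 and 0.85 ± 0.06. How many of all probe sets lack such overlap was not counted, and 83.4% of them were called in either direction, so a lack of overlap does not set these genes apart.

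Stat3, the transducer of the interleukin-6 family, ran the other way. It spanned 1211 to 1609 in T cells with a median of 1477, and 1992 to 3066 in hearts with a median of 2736, again without overlap. The difference was -0.85 ± 0.07 (adjusted p = 1.21e-08, limma), and the other Stat3 probe set gave -1.64. Socs2, an inhibitor of growth hormone signaling, spanned 405.3 to 586.8 in T cells and 397 to 887.1 in hearts, so the tissues overlapped. Its difference of -0.36 ± 0.10 (adjusted p = 0.00497, limma) was lost without the day 1 arrays (-0.21, adjusted p = 0.145) or without the cyclosporine arrays (-0.31, adjusted p = 0.0929). Jak2, the kinase of the growth hormone, interleukin-12 and interferon gamma receptors, spanned 835.1 to 1037 in T cells and 915.6 to 1497 in hearts, which overlapped as well. Its difference of -0.29 ± 0.08 (adjusted p = 0.00282, limma) was lost without the day 7 arrays (-0.17, adjusted p = 0.0665). Socs3, which blocks receptors of the interleukin-6 family, spanned 345.9 to 832.7 in T cells and 378.4 to 673.9 in hearts, and its difference of 0.14 ± 0.15 was not called (adjusted p = 0.371, limma; 5 of 9 pairs of arrays higher in T cells).

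**Figure D1:**
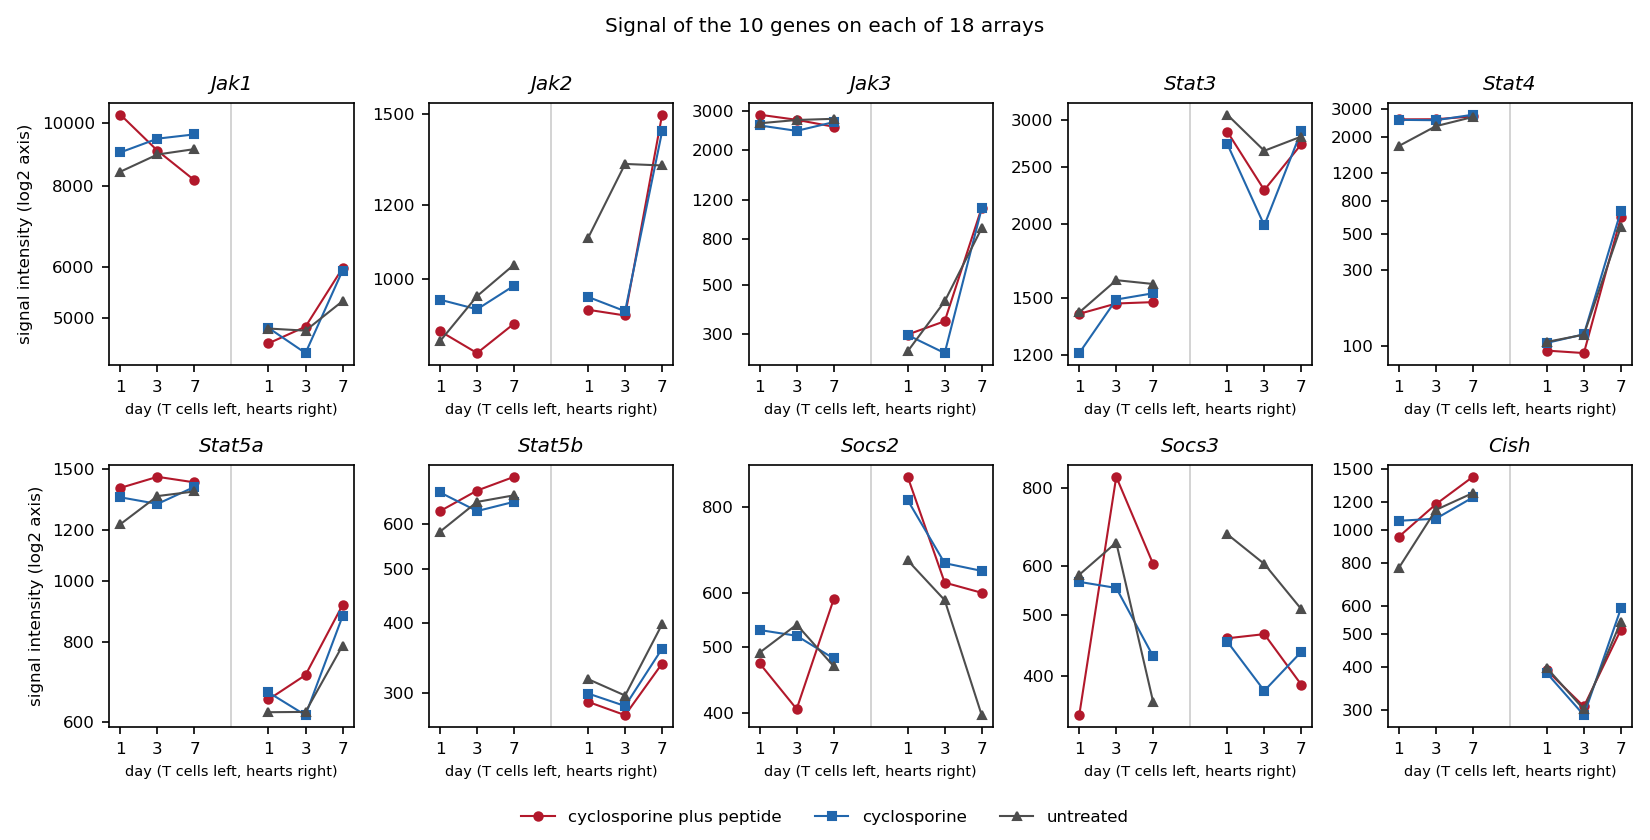
Signal intensity (log2 axis) of each of the 10 genes on each of 18 arrays by day, with T cells left and hearts right in each panel and lines joining the arrays of 1 treatment. Jak3 is flat in T cells, Stat4 and Jak3 are high in hearts on day 7, Cish in hearts dips on day 3, and the untreated hearts hold the highest Socs3 and the lowest Socs2 signal on each day.

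The second question was how the genes moved in the graft over time. Between days 1 and 7 the fit over 9 hearts called 7 of the 10 genes higher, a direction in which 30.9% of all probe sets were called, and 1 lower, against 33.8%. Jak3, Stat4, Cish, Jak2, Stat5a, Jak1 and Stat5b rose and Socs2 fell. Stat4 entered the test only through its day 7 signal, so its call follows from that choice, and of the other 9 genes 6 were called higher. Stat3 (-0.04 ± 0.08, adjusted p = 0.672) and Socs3 (-0.23 ± 0.10, adjusted p = 0.0776) were not called in limma.

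Stat4 read 94, 105 and 106.5 on day 1 in the hearts of rats given cyclosporine plus peptide, cyclosporine and no treatment. In the same order it read 90.75, 118.7 and 118.1 on day 3, and 632.9, 693.9 and 552.3 on day 7. The day 7 hearts lay above all others, while days 1 and 3 overlapped and lay under the 40th percentile of their arrays. With the day 1 values raised to that percentile, day 7 was at least 4.58-fold higher than day 1 in geometric mean.

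Jak3 read 298.6, 296.9 and 251.2 on day 1 with cyclosporine plus peptide, cyclosporine and no treatment. It read 342.5, 246.7 and 420.4 on day 3 and 1103, 1095 and 893.6 on day 7, in that order. The day 7 hearts were again apart from the rest, and on day 3 the untreated heart was the highest and the cyclosporine heart the lowest. The difference between days 7 and 1 was 1.81 ± 0.18 (adjusted p = 5.96e-05, limma), with 1.77 to 1.83 within the treatments.

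Cish read 391.4, 384.3 and 398.1 on day 1 with cyclosporine plus peptide, cyclosporine and no treatment. It read 307.8, 290.5 and 301.8 on day 3 and 513.8, 591.9 and 542.3 on day 7, in that order. The 3 days did not overlap: day 3 was the lowest and day 7 the highest in every treatment. How many of all probe sets lack overlap between days in hearts was not counted, for Cish or for any other gene described here. In either direction, 64.7% of them were called between days 7 and 1 and 27.5% between days 3 and 1. Day 3 lay below day 1 by -0.37 ± 0.08 (adjusted p = 0.0122) and day 7 above day 3 by 0.84 ± 0.08 (adjusted p = 6.61e-05) in limma, and the other Cish probe set gave -0.56 and 1.19.

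Stat3 shared the low day 3. It read 2870, 2736 and 3066 on day 1, 2286, 1992 and 2664 on day 3, and 2733, 2877 and 2816 on day 7 with cyclosporine plus peptide, cyclosporine and no treatment. Day 3 did not overlap with day 1 and lay below it by -0.33 ± 0.08 (adjusted p = 0.0196) and day 7 above day 3 by 0.29 ± 0.08 (adjusted p = 0.0146, limma). The other Stat3 probe set placed day 3 below day 1 (-0.46, adjusted p = 0.0208), did not call day 7 against day 3 (0.11, adjusted p = 0.428), and placed day 7 below day 1 (-0.35, adjusted p = 0.0246). Stat3 and Cish were the 2 genes called lower on day 3 than on day 1, a direction with 12.9% of all probe sets. Neither call held without the cyclosporine arrays (adjusted p = 0.0807 for Stat3 and 0.0688 for Cish) or without the arrays of cyclosporine plus peptide (0.121 and 0.0715). The day 7 call of Stat3 was lost with either group left out as well (adjusted p = 0.137 and 0.0807).

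Between days 3 and 7 the count was 8 of 10 genes higher, against 26.9% of all probe sets, and Socs2 and Socs3 were the exceptions. Stat4 is among the 8 and again entered the test only through its day 7 signal, so its call follows from that choice. Jak2, Stat5a, Stat5b and Jak1 changed less than Jak3 and Cish did. Jak2 read 928.5, 958.1 and 1107 on day 1, 915.6, 925.2 and 1327 on day 3, and 1497, 1437 and 1322 on day 7 with cyclosporine plus peptide, cyclosporine and no treatment. In untreated hearts it was thus already high on day 3, and day 7 exceeded day 1 over all treatments by 0.50 ± 0.12 (adjusted p = 0.00739, limma). Stat5a spanned 621.6 to 667.8 on day 1, 615 to 711 on day 3 and 790.8 to 915.6 on day 7. Days 7 and 1 differed by 0.40 ± 0.07 (adjusted p = 0.000978, limma). Stat5b (0.26 ± 0.07, adjusted p = 0.0107) and Jak1 (0.27 ± 0.06, adjusted p = 0.00614) moved less, and the other Jak1 probe set was not called (0.16, adjusted p = 0.0692). With 1 treatment left out Stat4 could not be tested. Without the arrays of cyclosporine plus peptide 4 of the other 9 genes were called between days 7 and 1, namely Jak3, Stat5a, Socs2 and Cish, and Jak1 (adjusted p = 0.0732), Jak2 (0.0616) and Stat5b (0.0567) were not. Jak2 was also lost without the cyclosporine arrays (0.0587), and Stat5b without those (0.078) or without the untreated arrays (0.0544). Between days 7 and 3, 5 were called without the arrays of cyclosporine plus peptide and 4 without the cyclosporine arrays, with Jak3, Stat5a, Stat5b and Cish each time.

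Socs2 declined. It read 887.1, 819.9 and 669.2 on day 1, 620.9, 662.9 and 585.2 on day 3, and 599.9, 645.9 and 397 on day 7 with cyclosporine plus peptide, cyclosporine and no treatment. Each treatment was lowest on day 7, although the days overlapped across treatments. Day 7 lay below day 1 by -0.54 ± 0.11 (adjusted p = 0.00246, limma), and day 3 below day 1 by -0.33 ± 0.11 without a call (adjusted p = 0.0524).

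**Figure D2:**
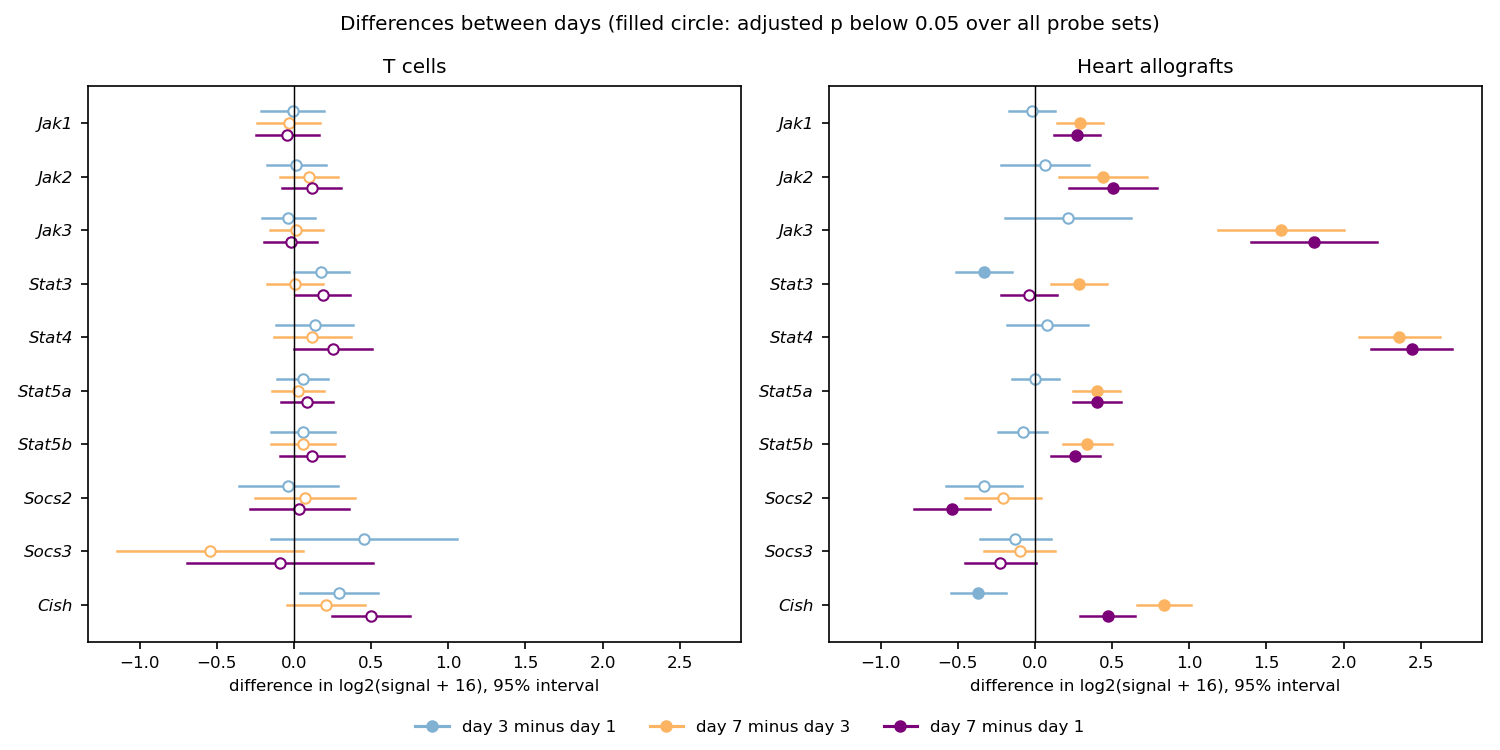
Differences between days for the 10 genes in T cells (left) and heart allografts (right), on the log2(signal + 16) scale, as circles with 95% intervals; filled circles have an adjusted p below 0.05 over all probe sets. Stat4, tested only through its day 7 signal, and Jak3 (1.81) stand far to the right in hearts between days 1 and 7, while no circle is filled in T cells.

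Markers of immune cells moved with these changes. The summed signal of 12 T cell markers was 1596 to 2606 on day 1, 2017 to 3027 on day 3 and 21050 to 25780 on day 7 in hearts. All 11 T cell markers and all 7 markers of natural killer and cytotoxic cells tested were higher on day 7 than on day 1. The share of all probe sets in this direction was 30.9%. Of the 11 and the 7, 5 and 2 exceeded the percentile on fewer than 3 of the 6 hearts of days 1 and 3. They needed their day 7 signal to enter the test, so their calls follow from that choice. Without them 6 of 6 and 5 of 5 were higher, against 29.1% of all probe sets chosen likewise. In addition, 4 of 12 T cell markers were above the percentile on no heart array of days 1 and 3. None of the 12 was at or below 0 on all 6 of these arrays. The 9 macrophage markers summed to 14950 to 15590 on day 1, 22230 to 29050 on day 3 and 53870 to 57970 on day 7. Heart muscle markers summed to 120900 to 126000, 110100 to 129100 and 90540 to 107100 on these days. The actin signal at the 3' end over that at the 5' end, which grows as RNA breaks down, was 1.84 to 2.44, 1.64 to 1.86 and 1.41 to 1.43. The same ratio for GAPDH showed no such fall, at 1.5 to 1.57, 1.51 to 1.65 and 1.51 to 1.54. The part of these shifts in the changes of the 10 genes was not tested, and in tissue samples fewer cells of a type and less RNA per cell cannot be told apart.

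**Figure D3:**
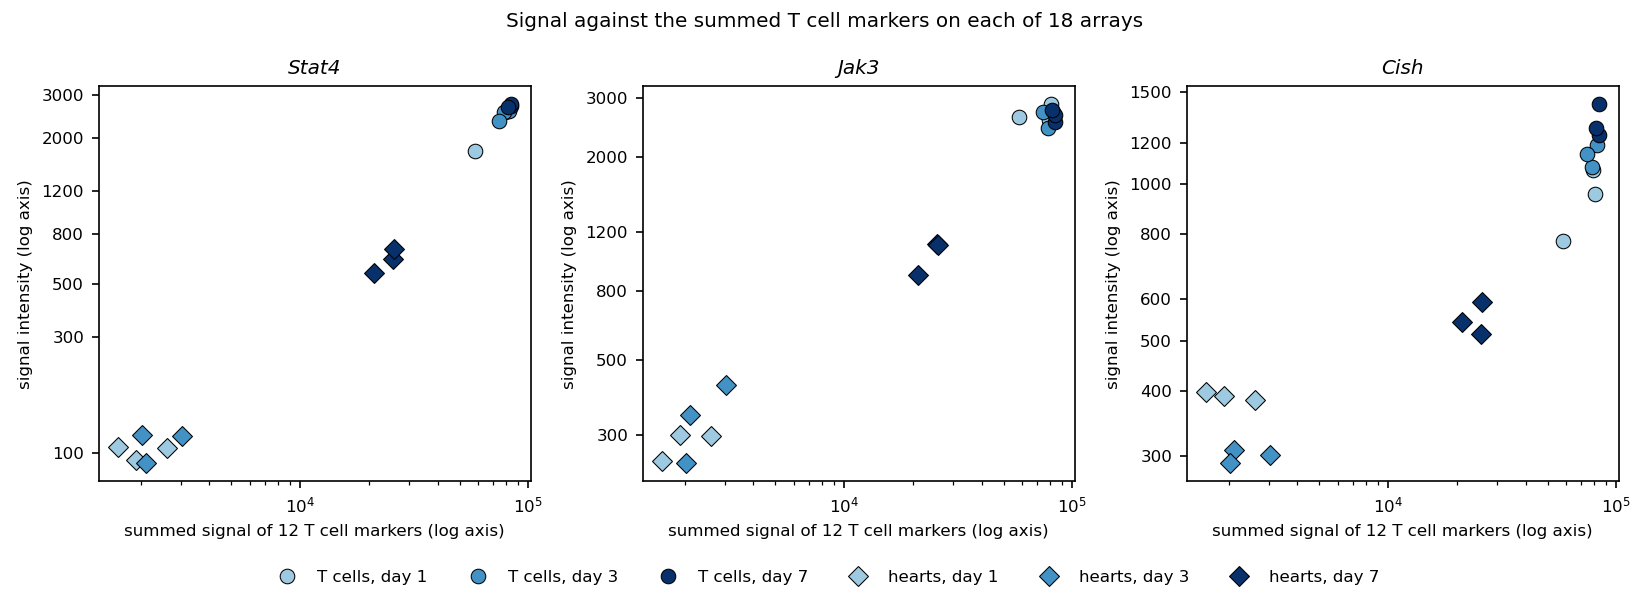
Signal intensity of Stat4, Jak3 and Cish against the summed signal of 12 T cell markers on each of 18 arrays (both axes logarithmic), with circles for T cells, diamonds for hearts and darker shades for later days. The day 7 hearts, with sums of 21050 to 25780, lie between the other hearts and the T cells.

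By a rule of likeness, the root mean square of the differences between centred log2 values over the 9 hearts, RT1-S3 (0.12) and C2h1orf162 (0.12) were nearest to Stat4 among 11148 genes, and Rab11fip4 (0.13) and Rasgef1b (0.15) to Jak3. Plekha4 (0.11) and Satb1 (0.12) were nearest to Socs2. The other genes varied by less than 1 log2 unit in hearts and were given no neighbours.

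In T cells no day difference was called for any of the 10 genes in limma. Between days 3 and 1 and between days 7 and 3, 0% of all probe sets were called (1617 and 1048 of 19454 had an unadjusted p below 0.05), and between days 7 and 1 the share was 0.576%. Jak3 spanned only 2436 to 2877 over the 9 samples and differed by -0.02 between days 7 and 1. Stat4 was lowest in the untreated day 1 array, at 1758, and spanned 2335 to 2751 in the others. The nearest to a call was Cish, which read 954.8, 1062 and 775.8 on day 1, 1186, 1077 and 1142 on day 3, and 1424, 1241 and 1278 on day 7 with cyclosporine plus peptide, cyclosporine and no treatment. Day 7 was the highest in each treatment, by 0.50 ± 0.11 over day 1 (adjusted p = 0.0754), and by 0.38 ± 0.10 (adjusted p = 0.149) without the untreated day 1 array.

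The test of the difference itself, the change in T cells minus the change in hearts, called several genes. From day 1 to day 3 Stat3 (0.51 ± 0.11, adjusted p = 0.0199) and Cish (0.66 ± 0.14, adjusted p = 0.0172) were called higher in limma, against 4.2% of all probe sets. The T cell change of Cish was 0.29 and its heart change -0.37. Without the untreated day 1 T cell array these differences were 0.51 ± 0.12 (adjusted p = 0.0339) for Stat3 and 0.54 ± 0.13 (adjusted p = 0.0322) for Cish. From day 1 to day 7, 4 genes were called lower, against 23.5% of all probe sets, and 1 higher, against 23.2%. The 4 were Stat4 (-2.19 ± 0.16, fitted with day 1 hearts under the percentile), Jak3 (-1.83 ± 0.21), Stat5a (-0.32 ± 0.09) and Jak1 (-0.31 ± 0.11), and the other was Socs2 (0.58 ± 0.19). The call of Jak1 (adjusted p = 0.0379) was lost under quantile normalization, centring on array medians, its other probe set and limma without a trend, at adjusted p of 0.0558 to 0.117. All 5 were also called without the untreated day 1 T cell array, at -2.34 ± 0.14 for Stat4, -1.87 ± 0.23 for Jak3, -0.36 ± 0.10 for Stat5a, -0.38 ± 0.12 for Jak1 and 0.56 ± 0.21 for Socs2, and Jak2 was called as well (-0.46 ± 0.17, adjusted p = 0.0374).

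The treatment comparisons asked what cyclosporine and the peptide did to these genes. Of the 10 genes 0 were called in any of the 6 comparisons within a tissue, and 0% of all probe sets were called in limma. In hearts 3157 of 19734 probe sets had an unadjusted p below 0.05 for cyclosporine plus peptide against no treatment, 2287 for cyclosporine against no treatment, and 954 for cyclosporine plus peptide against cyclosporine. The counts in T cells were 4631, 2216 and 855 of 19454. Comparisons with untreated samples share those arrays and are not independent of each other.

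The inhibitors Socs3 and Socs2 gave the smallest p-values of the 10 genes in hearts. Socs3 read 459.2, 466.3 and 387 on days 1, 3 and 7 with cyclosporine plus peptide, 453.6, 378.4 and 436.9 with cyclosporine, and 673.9, 604 and 511.3 without treatment. The untreated heart was the highest on each day, and all 3 untreated hearts exceeded all 6 others. How many of all probe sets place the untreated heart at an end on each day was not counted, and Socs3 and Socs2 were picked for their p-values. The differences from untreated hearts were -0.43 ± 0.10 for cyclosporine plus peptide (unadjusted p = 0.00264, adjusted p = 0.195) and -0.48 ± 0.10 for cyclosporine (unadjusted p = 0.00144, adjusted p = 0.19) in limma. For Socs2, whose values are given above, the untreated heart was the lowest on each day, and the differences were 0.35 ± 0.11 (adjusted p = 0.221) and 0.38 ± 0.11 (adjusted p = 0.287, limma). The 7 neutrophil markers moved with treatment too. They summed to 6343, 6162 and 2504 on days 1, 3 and 7 with cyclosporine plus peptide, 5175, 5883 and 1595 with cyclosporine, and 11960, 12420 and 1905 without treatment, and their part in the Socs3 values was not tested.

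The intervals bound what 3 days can show. For cyclosporine plus peptide against cyclosporine alone in hearts, the 95% interval ran from -0.18 to 0.28 for Socs3, from -0.27 to 0.22 for Socs2 and from -0.46 to 0.06 for Stat4. In T cells the interval for Socs3, the most variable of the 10 genes there, ran from -0.49 to 0.71 for cyclosporine plus peptide against no treatment. That difference was 0.11 ± 0.26 with all arrays and 0.32 ± 0.28 without the untreated day 1 T cell array (adjusted p = 0.817 and 0.527, limma). Socs3 in T cells read 345.9, 832.7 and 603.2 on days 1, 3 and 7 with cyclosporine plus peptide, 565.4, 552.8 and 429.4 with cyclosporine, and 580.4, 653.6 and 362.6 without treatment. The order of treatments changed from day to day. For Stat4 in T cells the differences from untreated samples were 0.23 for cyclosporine plus peptide and 0.23 for cyclosporine with all arrays, and 0.08 for each without that array. Fkbp2 (0.21) and Plcd3 (0.23) were nearest to Socs3 in T cells by the same likeness, among 10385 genes. The test of whether treatment effects differed between T cells and hearts called 0 of the 10 genes and 0.00448% of all probe sets, for cyclosporine plus peptide and for cyclosporine (4624 and 2280 of 22318 had an unadjusted p below 0.05).

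**Figure D4:**
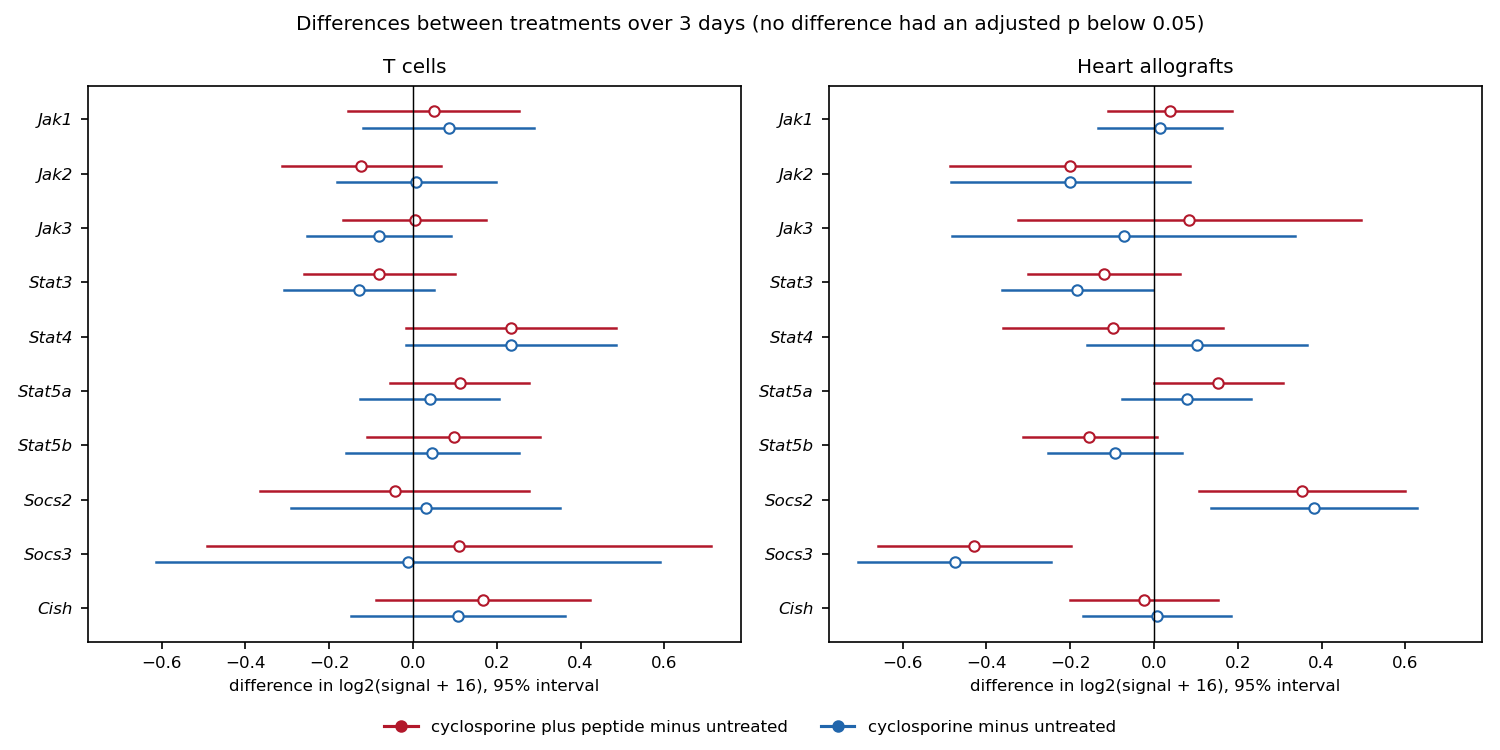
Differences of cyclosporine plus peptide and of cyclosporine from untreated samples over 3 days for the 10 genes in T cells (left) and heart allografts (right), on the log2(signal + 16) scale with 95% intervals. The intervals of Socs3 (below 0) and Socs2 (above 0) in hearts leave out 0, although no adjusted p was below 0.05.

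The rest of the pathway was listed by role. All 7 other JAK, STAT and SOCS genes analysed here were called between days 1 and 7 in hearts, 5 higher and 2 lower, against 30.9% and 33.8% of all probe sets, with a median difference of 0.69 against -0.02. Without genes that needed their day 7 signal to enter the test, 4 of 6 were higher, against 29.1% of all probe sets chosen likewise. Socs1, the inhibitor induced by interferon gamma, entered the test through its day 7 signal: it read 47.6 to 66.4 on day 1, 65.8 to 238 on day 3 and 1170 to 1400 on day 7. Only 1 of the 6 hearts of days 1 and 3 exceeded the 40th percentile for Socs1, and with the day 1 values raised to it day 7 was at least 9.48-fold higher. Stat2 and Tyk2, which serve the type I interferon receptor, rose by 1.72 ± 0.07 and 1.46 ± 0.09, and Stat6, the transducer of interleukin-4, by 0.69 ± 0.09. Socs7 rose by 0.56, while Socs6 and Socs5 fell by 0.44 and 0.20. Tyk2 was the 1 gene of this list already higher on day 3 (0.55 ± 0.09, adjusted p = 0.00685, limma), against 14.6% of all probe sets called higher.

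Of 9 cytokine ligands tested 5 were higher and 3 lower on day 7 than on day 1, against the same 30.9% and 33.8%. Of the 5 higher ligands 4 entered the test through their day 7 signal, so that count supports nothing. With day 1 values raised to the 40th percentile, under which they all lay, day 7 was at least 3.07-fold higher for Ifng, 2.15-fold for Il7 and 1.59-fold for Il10. Il6 went the other way: it spanned 305 to 641 on day 1, 520 to 915 on day 3 and 102 to 190 on day 7, when 1 of 3 hearts exceeded the percentile. Day 3 minus day 1 was 0.68 ± 0.13. Of 25 receptors tested 17 were higher and 4 lower, against 30.9% and 33.8% of all probe sets, with a median of 0.40. Without receptors that needed their day 7 signal to enter the test, 16 of 23 were higher, against 29.1% of all probe sets chosen likewise. Among the receptors called higher were Il10ra (3.25 ± 0.17), the interleukin-2 receptor chain Il2rb (2.64 ± 0.14) and the common gamma chain Il2rg (2.04 ± 0.12). Il2rb spanned 304 to 399 on day 1, 323 to 385 on day 3 and 1800 to 2630 on day 7, and all day 7 hearts lay above the others.

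Of 21 known STAT target genes tested 10 were higher and 2 lower on day 7, against 30.9% and 33.8% of all probe sets, with a median of 0.16. A2m, a rat acute phase gene driven by STAT3, spanned 92 to 119 on day 1, 524 to 639 on day 3 and 1290 to 2030 on day 7. Its day 1 values lay under the 40th percentile, and with these raised to it day 7 was at least 12.8-fold higher. Irf1, a target of interferon signaling, rose by 2.28 ± 0.21 and the kinase gene Pim1 by 1.17 ± 0.12. On day 3, 9 of the 21 were already higher than on day 1 and 1 lower, against 14.6% and 12.9% of all probe sets, with Lbp at 1.53 ± 0.21. Fgg, an acute phase fibrinogen gene, spanned 77.4 to 147 on day 1, 204 to 403 on day 3 and 31.1 to 59.1 on day 7, with 1, 3 and 0 of 3 hearts above the percentile. Of 10 genes listed as other inhibitors 4 were higher and 2 lower on day 7, against the same 30.9% and 33.8%. Among the higher was the phosphatase gene Ptpn6 (2.08 ± 0.12). The lower included Lnx1 (-1.21 ± 0.08), which was on the list but is not an established inhibitor of this pathway. In T cells, no gene of these lists was called between any days or treatments in limma, and in hearts none between treatments.

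**Figure D5:**
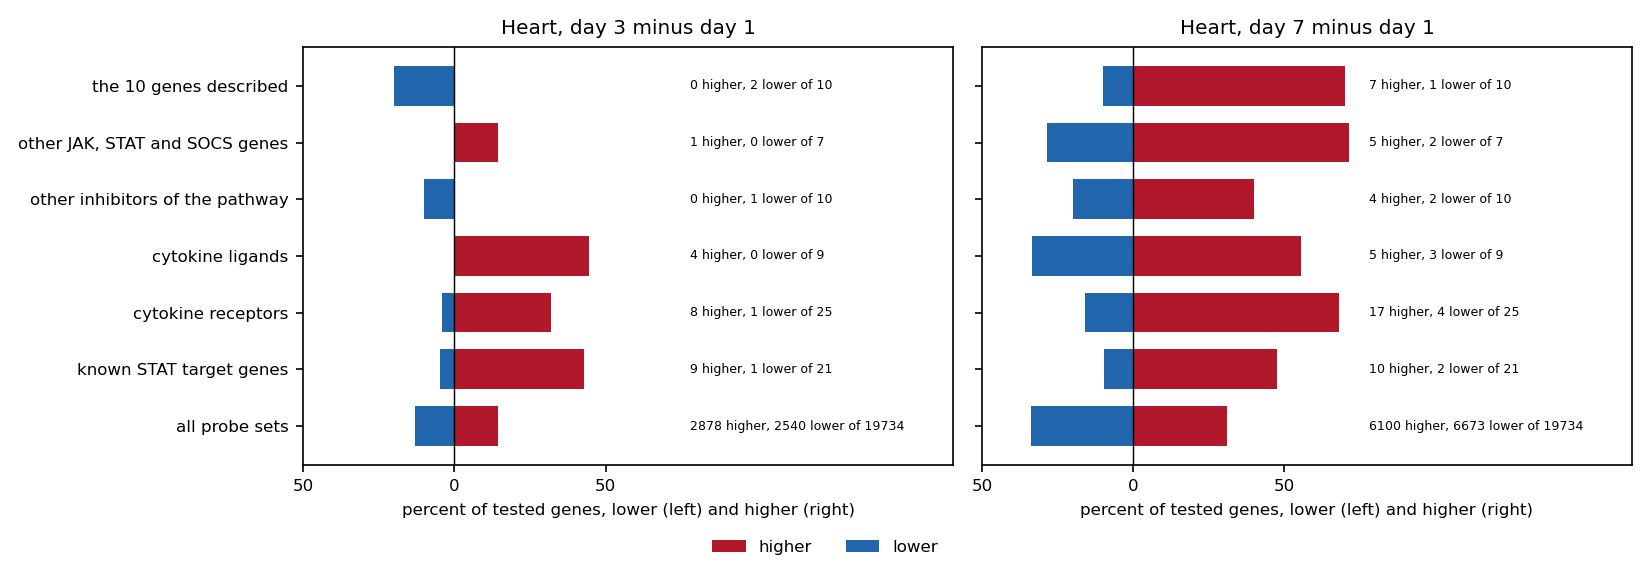
Percent of tested genes called higher (right) and lower (left) in hearts on day 3 and on day 7 against day 1, for the 10 genes, 5 further lists of the pathway and all probe sets. On day 7, 17 of 25 receptors and 5 of 7 other JAK, STAT and SOCS genes are higher, against 30.9% of all probe sets. Without genes that needed their day 7 signal to enter the test, the counts are 16 of 23 and 4 of 6, against 29.1%.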

How the data were processed

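Total RNA from heart allografts and T cells was labelled as biotinylated cRNA and hybridised to rat expression arrays, per the labels' protocols. The authors deposited 1 table of signal intensity values per probe set. Software and scaling were not given in the sources used here. Of 31099 probe sets 57 controls were left out of the tests, 20826 carried 1 symbol in the platform annotation, 436 several and 9780 none, and 0.138% of the intensities were below 0 and set to 0. The values were used as deposited, as log2(intensity + 16). limma 3.58.1 (R 4.3.3) was run with a mean trend. Within a tissue, treatment and day were additive terms on 9 arrays (4 residual degrees of freedom). T cells minus hearts was fitted with both terms on 18 arrays (12), and differences between the tissues as interactions (8). Probe sets above the 40th percentile of the array in at least 3 arrays were tested, 19734 in hearts, 19454 in T cells and 22318 over both, with Benjamini-Hochberg adjustment over all of them. No pair of arrays shared more than 0.00322% of identical intensities. The scripts were tested on simulated data. The genes, lists and rules were chosen with earlier results of these data known. The text names all 10 genes and, per list and comparison, up to 4 called genes by size of difference. The exception is the list of other JAK, STAT and SOCS genes, of which all 7 are named. The 2 most alike genes are named where a gene varied by at least 1 log2 unit. Alternatives were the normalization, pseudocount, filter, probe set, trend, pooled spread, a block and leaving out a day or treatment. Dim genes were also given as bounds, raised to the 40th percentile, and this and leaving out the untreated day 1 T cell array were chosen after seeing the data. The arrays' small number limits the precision.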

Additional observations from a re-analysis of the deposited data

Results flagged for a closer look

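The change over days differed between T cells and hearts, by the interaction test in limma, for the following 7 results. Values are the T cell change minus the heart change on the log2(signal + 16) scale. From day 1 to day 3, Stat3 differed by 0.51 (0.18 in T cells, -0.33 in hearts; adjusted p = 0.0199) and Cish by 0.66 (0.29 in T cells, -0.37 in hearts; adjusted p = 0.0172). From day 1 to day 7, Stat4 differed by -2.19 (0.25 in T cells, 2.44 in hearts; adjusted p = 1.16e-06), although its hearts of day 1 lay under the 40th percentile, and Jak3 by -1.83 (-0.02 in T cells, 1.81 in hearts; adjusted p = 2.8e-05). Stat5a differed by -0.32 (0.08 in T cells, 0.40 in hearts; adjusted p = 0.0142). Jak1 differed by -0.31 (-0.04 in T cells, 0.27 in hearts; adjusted p = 0.0379). Socs2 differed by 0.58 (0.04 in T cells, -0.54 in hearts; adjusted p = 0.0237).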

How the results depend on the processing

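No paired analysis was possible because no combination of tissue, treatment and day has a second array, so that replicate numbers link nothing. T cells and hearts can be matched by treatment and day, and with these combinations as a block 18091 of all probe sets were called between the tissues, against 18621. No called difference of the 10 genes changed direction under the alternatives run. The number of the 10 genes called stayed between 8 and 9 for T cells minus hearts over 16 alternatives. Without the cyclosporine arrays it fell to 0 between days 3 and 1 and to 4 between days 7 and 3 in hearts. Without the arrays of cyclosporine plus peptide it was 0 and 5 there, and 4 between days 7 and 1. These fits hold 6 arrays, and Stat4 was then untested. In T cells, 1 gene was called for cyclosporine plus peptide against no treatment without the day 1 arrays (Socs3, 0.53, adjusted p = 0.044), and 1 between days 7 and 1 with the spread pooled over both tissues (Cish, adjusted p = 0.013). The cause was not tested. The treatment comparisons in hearts called 0 of the 10 genes under 12 alternatives each. Of all probe sets, 5418 were called between days 3 and 1 in hearts, and 1587, 1990 or 3482 with a treatment left out. Higher calls were 53.1% of them and 35.2% with array medians centred, which moved the median difference between T cells and hearts by 0.10, to 0.25. Between days 7 and 3 in hearts, 7287 were called without the cyclosporine arrays, against 11125. In T cells the count for cyclosporine plus peptide against no treatment was 2489 without the day 1 arrays and 2149 with pooled spread, against 0. For cyclosporine it was 121 with pooled spread, against 0. Between days 7 and 1 it was 2421 with pooled spread, 201 with centring, 53 without trend, 16 without the untreated day 1 array and 0 with a treatment left out, against 112. The difference in the effect of cyclosporine plus peptide had 79 calls with a filter at the 60th percentile, against 1. Without the untreated day 1 T cell array, a choice made after seeing the data, Jak2 was also called for the difference between tissues from day 1 to day 7 (-0.46, adjusted p = 0.0374).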

Other observations

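Between days 1 and 3 in hearts all 8 macrophage markers tested were called higher, against 14.6% of all probe sets. Among them were Cd163 (1.13 ± 0.14) and Cd68 (1.12 ± 0.08). The cytotoxic granule gene Gzmb was called higher too (0.59 ± 0.13). The other markers of natural killer and cytotoxic cells either overlapped between these days or lay under the 40th percentile on all of these arrays. All 7 endothelial markers were lower on day 7 than on day 1, against 33.8% of all probe sets, led by Vwf (-2.10 ± 0.11) and Cldn5 (-1.86 ± 0.11), and 5 of 6 neutrophil markers fell, among them S100a9 (-2.56 ± 0.31). Of 9 heart muscle markers 6 were lower, by up to -0.95 ± 0.17 for Myh6.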
